A study of Mus musculus with 32 samples.

Results

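Microglia are the resident macrophages of the brain and spinal cord. The comparison described here set repopulated against resident spinal cord microglia of female mice with a fracture. Its members are 8 of the 32 libraries of the series, chosen by their labels alone: 4 repopulated and 4 resident libraries, all from the table of 15 female libraries. Every library of the series carries the genotype label Cx3Cr1-Cre;Rosa26-iDTR, the time label day 14 and the cell label FACS-isolated microglia. The repopulated libraries are labelled with the treatment depletion and the condition injury, and are named Dt in their descriptions. The resident libraries are labelled with no depletion and injury, and are named Wt in their descriptions although the genotype label is the same. Both groups therefore share the fracture, the sex, the day and, by the label, the alleles. The column names of the male libraries used further below read WT for resident and iDTR for repopulated cells. These names differ from the shared genotype label, so whether the alleles were the same is not settled in either sex. In this line the Cx3cr1 promoter drives the recombinase, so that tamoxifen lets Cx3cr1-expressing cells make a receptor for diphtheria toxin, and the toxin then removes them for a time. Whether the resident mice also received tamoxifen or the toxin is not stated, so repopulation, toxin exposure and any difference in genotype cannot be told apart. Cx3cr1 is also expressed by circulating monocytes and by macrophages at the borders of the central nervous system. The labels do not say that each library came from a separate animal, and the tests therefore compare the spread of libraries, part of which may be technical.

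Microglia normally renew themselves by slow local division. After most of them are removed, the survivors divide quickly and refill the tissue, and macrophages of other origin can take up part of the space. Microglia hold many lysosomes, in which proteases and glycosidases break down what the cells have engulfed, and their receptors for ATP, chemokines and bacterial products are studied for their part in pain after injury. The sections below go through the genes with the steadiest differences, cell division, lysosomes, protein synthesis, microglial identity, immune signalling, and adhesion and transcript forms.

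Total estimated counts were 16438827 to 18506700 in the repopulated and 17955929 to 18654165 in the resident libraries. Levels are given as CPM, counts scaled to library size, relative to the library total times a TMM factor, which was 0.954 to 0.978 in repopulated and 1.03 to 1.04 in resident libraries. All 15 microglia markers looked up were listed, and their summed level was 55268 to 57094 CPM in repopulated and 55641 to 56762 CPM in resident libraries. Single markers moved both ways. In 6 of the 15 all 4 repopulated libraries lay above all 4 resident ones, and in 5 below (6.26% and 5.64% of all genes). On the first principal component, with 21.1% of the variance among the 15 female libraries, the groups with fracture overlapped. Repopulated libraries lay at 17.6 to 40.7 and resident ones at -12.7 to 35.5. On the second, with 16.7% of the variance, the repopulated libraries with fracture lay at -33.2 to -18 and the resident ones at 28.7 to 32. A transcript is listed in the deposited table where 8 or more of the 15 libraries hold 10 counts or more. Since 7 of the 15 are repopulated, a transcript seen in repopulated cells alone could not be listed, while one seen in all 8 resident libraries alone could. Listed transcripts with at least 10 counts in every resident and at most 1 repopulated library numbered 19, and the reverse 9.

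Of 13377 genes, 315 (2.35%) differed between repopulated and resident microglia with fracture, 170 higher (1.27%) and 145 lower (1.08%) in repopulated cells. The 315 bear 312 distinct symbols, since Kif11, Nek2 and Gm26670, all lower, are each counted under 2 identifiers with the same fold change. The test was edgeR's quasi-likelihood F test with Benjamini-Hochberg adjustment over all genes, and a gene with an adjusted p below 0.05 is said to be called, to rise or to fall. A change above 2-fold was seen in 36 of the rises and 76 of the falls. The part of the listing rule in these unequal counts was not tested. In 314 of the 315 called genes the 4 repopulated libraries did not overlap the 4 resident ones. Over all genes, 837 (6.26%) were higher and 755 (5.64%) lower without overlap. The number of calls rested on few libraries, with 106 to 233 called when any 1 of the 8 was left out, fewest without resident replicate 1. Of the 315 calls, 79 held whichever library was left out, 48 higher and 31 lower, with Kif11 counted under both identifiers. These 79 are described first. Several of them lie outside the rule for named genes and were chosen after their values were seen, because their calls held. Other called members of a list are named to account for its count. The gene lists were chosen with earlier results of these data known. Their counts are descriptive, and no list was tested as a set. Where members at an unadjusted p below 0.05 are counted, 1834 of all 13377 genes had such a p in this comparison. In data simulated at this depth, the same fit recovered 25.4% of 1.5-fold, 61.2% of 2-fold and 83.3% of 4-fold changes, so many smaller differences would go uncalled.

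The lowest adjusted p belonged to Serpinf1, which encodes PEDF, a secreted factor that limits blood vessel growth. Serpinf1 was at 20.5, 29.6, 15.4 and 20.5 CPM in the repopulated libraries, against 99.1, 98.5, 111 and 101.3 CPM in the resident ones. Each repopulated library was far below every resident one (log2 fold change -2.25 ± 0.17 SE, edgeR adjusted p = 8.59e-06). Cdkn1a, which encodes the cell cycle inhibitor p21, was at 27, 36.9, 32.1 and 26.6 CPM in the repopulated libraries, against 88.3, 72.1, 85 and 100.2 CPM in the resident ones, and the groups lay far apart (log2 fold change -1.49 ± 0.17 SE, edgeR adjusted p = 0.00101). Upk1b, a tetraspanin gene used as a microglial marker, was at 16.9, 30.5, 30.1 and 23.2 CPM in the repopulated libraries, against 114, 99.8, 113 and 90.9 CPM in the resident ones (log2 fold change -2.05 ± 0.24 SE, edgeR adjusted p = 0.00101). Gimap6, of a family of GTPases known from lymphocytes, was at 10, 9.16, 11.5 and 14.3 CPM in the repopulated libraries, against 37.5, 44.3, 47.1 and 37.2 CPM in the resident ones (log2 fold change -1.89 ± 0.23 SE, edgeR adjusted p = 0.00101). Its family member Gimap1 also fell, averaging 9.65 ± 3.44 CPM in repopulated and 26.9 ± 2.65 CPM in resident libraries (SD, n = 4 each; log2 fold change -1.48 ± 0.27 SE, edgeR adjusted p = 0.0126).

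Among the steadiest rises was Pilra, which encodes an inhibitory receptor of myeloid cells. Pilra was at 149, 136, 135 and 124 CPM in the repopulated libraries, against 39.4, 34.4, 36.8 and 37 CPM in the resident ones (log2 fold change 1.88 ± 0.21 SE, edgeR adjusted p = 0.00101). Every repopulated library was more than 3 times as high as any resident one. Tnfsf8, which encodes the ligand of CD30, was at 61.4, 72.6, 76.4 and 63 CPM in the repopulated libraries, against 25.6, 22.7, 18.8 and 25.6 CPM in the resident ones (log2 fold change 1.56 ± 0.19 SE, edgeR adjusted p = 0.00109). Lag3, an inhibitory receptor gene best known from T cells, averaged 120.2 ± 24.9 CPM in repopulated and 54.8 ± 2.38 CPM in resident libraries (SD, n = 4 each; log2 fold change 1.13 ± 0.19 SE, edgeR adjusted p = 0.00911). Nrp1, which encodes a co-receptor for semaphorins and VEGF, averaged 349.9 ± 25.6 CPM in repopulated and 238 ± 14.9 CPM in resident libraries (log2 fold change 0.55 ± 0.073 SE, edgeR adjusted p = 0.0022). St8sia1, the enzyme that makes the ganglioside GD3, was at 30.9, 35.4, 33.9 and 24.1 CPM in the repopulated libraries, against 8.49, 4.66, 14.2 and 7.47 CPM in the resident ones (log2 fold change 1.84 ± 0.33 SE, edgeR adjusted p = 0.0124), and no repopulated library overlapped a resident one. Nedd9, a scaffold protein of focal adhesions, was at 17.1, 18.5, 15.4 and 16.9 CPM in the repopulated libraries, against 8.18, 4.07, 2.56 and 4.3 CPM in the resident ones (log2 fold change 1.82 ± 0.31 SE, edgeR adjusted p = 0.00911). The cytidine deaminase genes Apobec1 and Apobec3 rose by 0.52 and 0.51 on the log2 scale (edgeR adjusted p = 0.00508 and 0.00876).

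**Figure D1:**
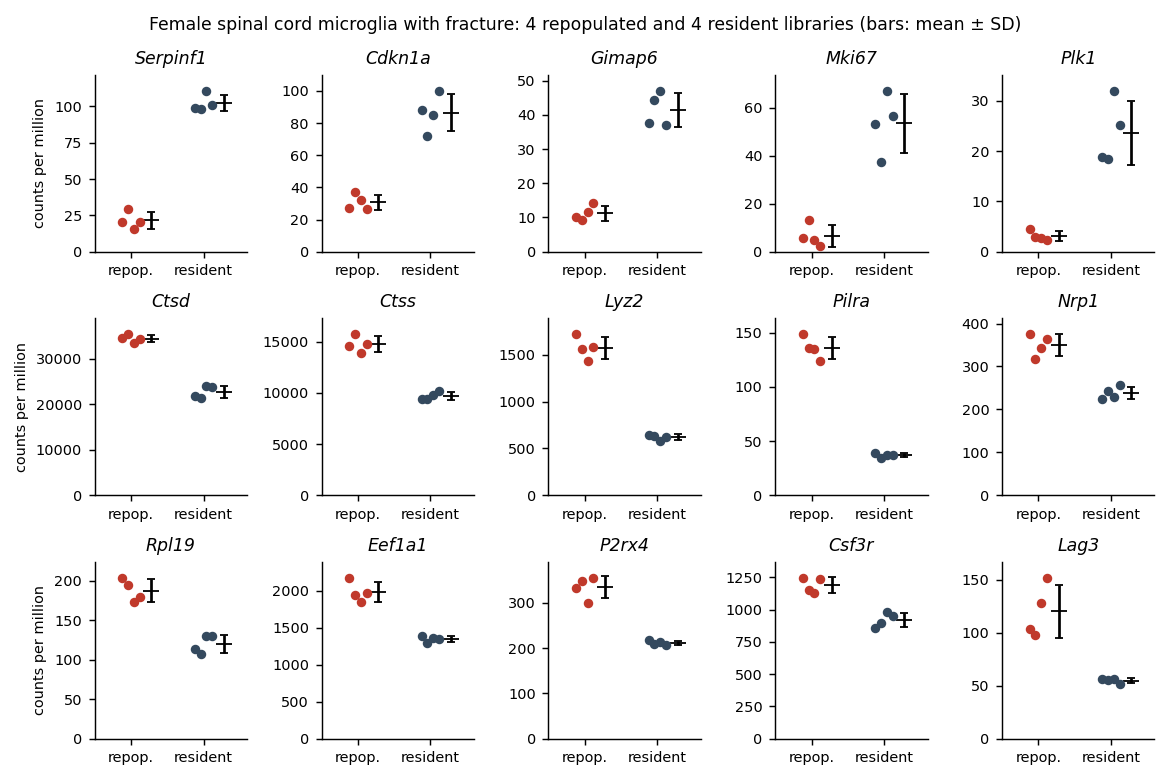
CPM (y axis, from 0) of 15 genes in the 4 repopulated (left, red) and 4 resident (right, dark) female libraries with fracture, with the mean ± SD beside the points. In each panel the 2 groups do not overlap; Serpinf1, Cdkn1a, Gimap6, Mki67 and Plk1 are lower and the other 10 genes higher in repopulated microglia.

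Genes of cell division were lower in repopulated microglia. Of 47 mitosis genes measured, 14 fell, 0 rose and 33 did not pass, against 1.08% of all genes that fell. The list's median log2 change was -2.07, beside 0 over all genes, and in 34 of the 47 all repopulated libraries lay below all resident ones (5.64% of all genes). The summed level of the list was 274 to 491 CPM in repopulated and 709.9 to 1391 CPM in resident libraries, highest in resident replicate 3 (1391 CPM) and lowest in repopulated replicate 3 (274 CPM). Mki67, the proliferation antigen Ki-67, was at 5.61, 13.3, 4.91 and 2.25 CPM in the repopulated libraries, against 53.2, 37.3, 67.2 and 56.7 CPM in the resident ones (log2 fold change -3.04 ± 0.51 SE, edgeR adjusted p = 0.0124). Plk1, a kinase of spindle assembly, was at 4.59, 2.96, 2.67 and 2.37 CPM in the repopulated libraries, against 18.8, 18.4, 32 and 25.2 CPM in the resident ones (log2 fold change -2.90 ± 0.50 SE, edgeR adjusted p = 0.012). Kif18b, a kinesin that shortens spindle microtubules, was at 1.53, 2.45, 0.124 and 1.27 CPM in the repopulated libraries, against 12.8, 11.9, 23.5 and 12.1 CPM in the resident ones (log2 fold change -3.47 ± 0.59 SE, edgeR adjusted p = 0.00994), with resident replicate 3 far above the other resident libraries. Kif11, the kinesin that pushes spindle poles apart, was at 2.55, 1.54, 0.435 and 1.1 CPM in the repopulated libraries, against 9.07, 7.49, 9.36 and 10.3 CPM in the resident ones (log2 fold change -2.68 ± 0.51 SE, edgeR adjusted p = 0.0142); it is listed under 2 gene identifiers with the same counts.

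These 4 mitosis calls held without any 1 library, and the other 10 did not. The number of called mitosis genes was 4 without repopulated replicate 4 or resident replicate 3, 16 without repopulated replicate 2 and 5 to 9 without any other library, while the median stayed between -2.36 and -1.72. The other members called were the spindle and cytokinesis genes Aurkb (-2.12), Birc5 (-2.16), Cdca8 (-2.32), Kif23 (-2.32), Prc1 (-2.38), Hmmr (-2.40) and Pbk (-2.98), the condensin subunit Ncapg (-2.29), the activator of the anaphase-promoting complex Cdc20 (-2.39) and the entry regulator Cdca3 (-2.63), each given as a log2 fold change. Outside the list, the 15 largest falls among genes of at least 5 CPM in the higher group included Aspm (-3.26) of the spindle pole, Sgo1 (-3.08) and Esco2 (-2.79) of sister chromatid cohesion, the DNA glycosylase Neil3 (-2.68), the centrosomal kinase Nek2 (-2.51), and Lockd (-2.87), a long noncoding RNA next to Cdkn1b. The call of Aspm was lost without repopulated replicate 4, adjusted p up to 0.0553, and that of Lockd was lost without repopulated replicate 4 or resident replicates 3 or 4, adjusted p up to 0.0708. The call of Nek2, also listed under 2 identifiers, was lost without repopulated replicates 1, 3 or 4 or resident replicate 3, adjusted p up to 0.0738. Those of Sgo1, Esco2 and Neil3 were lost without 7, 6 and 8 of the 8 libraries, with adjusted p up to 0.0963, 0.101 and 0.111.

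Promoters of mitosis genes often carry the cell cycle genes homology region, whose core was searched here as TTTGAA on both strands. RefSeq promoters (GRCm38.p6, 250 bases before to 50 after the start) were found for 12 of the 14 called members, and 11 held the motif, as did 21 of 27 uncalled members with a promoter. Of all 27025 genes with a promoter in the table, 20.2% held it in at least 1, and of all 32851 promoters 17.9%. The bases before the start are shown for 5 called members because these genes fell together. Capitals mark TTTGAA or its reverse complement TTCAAA, and the sequences run 5′ to 3′ on the gene's strand. Their positions are chr7:135716380-135716499 on the minus strand for Mki67, chr4:118437344-118437463 on the minus strand for Cdc20, chr5:45669805-45669924 on the plus strand for Ncapg, chr7:80294356-80294475 on the plus strand for Prc1 and chr19:37376262-37376381 on the plus strand for Kif11. Each is 120 bases long and ends at the base before the start.
Mki67: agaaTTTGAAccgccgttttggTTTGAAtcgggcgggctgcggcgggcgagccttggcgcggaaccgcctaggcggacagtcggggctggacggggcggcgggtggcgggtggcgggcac
Cdc20: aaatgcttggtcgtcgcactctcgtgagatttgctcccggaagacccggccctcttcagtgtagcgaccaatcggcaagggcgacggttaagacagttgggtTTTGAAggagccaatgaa
Ncapg: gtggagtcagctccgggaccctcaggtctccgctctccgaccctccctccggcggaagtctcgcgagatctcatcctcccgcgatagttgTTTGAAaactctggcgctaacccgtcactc
Prc1: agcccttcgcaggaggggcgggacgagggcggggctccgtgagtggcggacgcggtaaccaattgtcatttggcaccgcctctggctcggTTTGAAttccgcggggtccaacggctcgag
Kif11: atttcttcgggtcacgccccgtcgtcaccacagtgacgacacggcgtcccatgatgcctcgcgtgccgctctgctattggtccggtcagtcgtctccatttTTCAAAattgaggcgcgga
The motif began 116 and 98 bases before the start in Mki67, 18 in Cdc20, 30 in Ncapg and in Prc1, and 19 in Kif11. Such a match describes the sequence and is not shown to be a bound site.

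Of 40 genes of DNA replication and S phase, 2 fell and 38 did not pass (1.08% of all genes fell). The median was -0.62, 1 of the 40 had a positive change, 15 were lower without overlap (5.64% of all genes) and 21 had an unadjusted p below 0.05. Mcm2, a subunit of the replicative helicase, averaged 13.5 ± 2.3 CPM in repopulated and 28.6 ± 7.43 CPM in resident libraries (SD, n = 4 each), and the maintenance methyltransferase Dnmt1 averaged 26.2 ± 3.32 CPM in repopulated and 40.2 ± 3.61 CPM in resident libraries. Their log2 fold changes were -1.08 and -0.62 (edgeR adjusted p = 0.0297 and 0.0343). The first call was lost when any library other than repopulated replicate 2 and resident replicate 2 was left out, adjusted p up to 0.0932, and the second lost when any library other than repopulated replicate 3 was left out, adjusted p up to 0.0985. Of 19 histone and chromatin assembly genes 3 fell, namely the microtubule regulator Stmn1 (-1.56), the histone chaperone Asf1b (-1.30) and the nucleosome-binding Hmgn2 (-0.65), calls lost without 7, 6 and 7 of the 8 libraries (adjusted p up to 0.0891, 0.118 and 0.126). Of 25 genes of the DNA damage response and p53 targets, Cdkn1a alone was called (median -0.20). The inhibitor p21 encoded by Cdkn1a and the division genes above were thus lower in the same libraries.

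**Figure D2:**
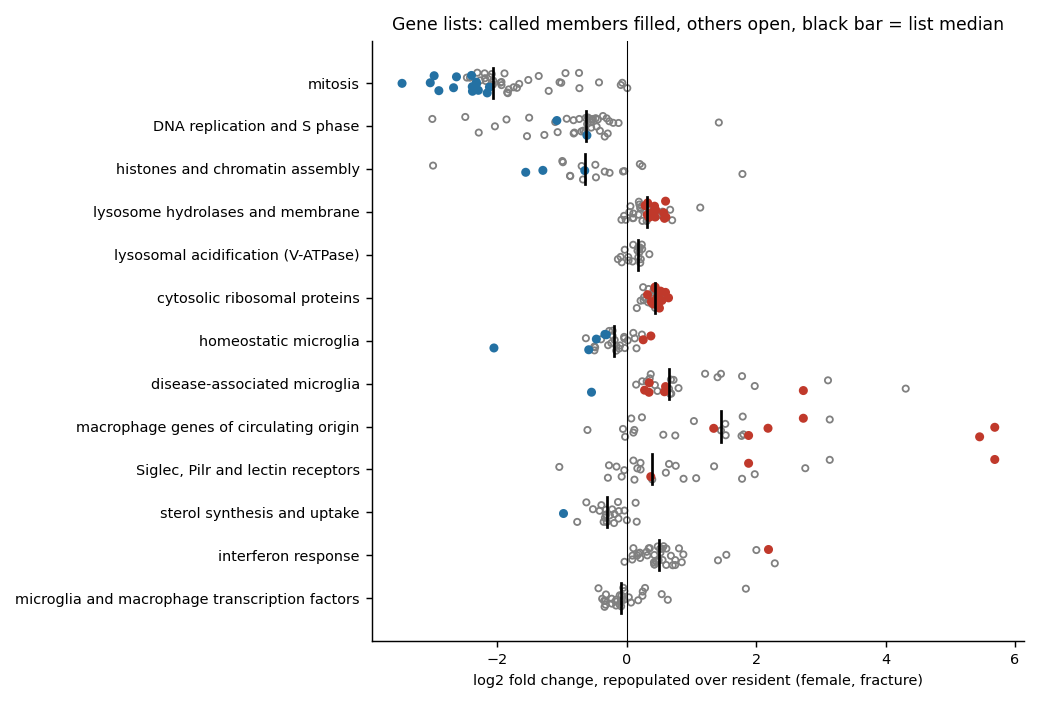
Log2 fold change of repopulated over resident microglia in females with fracture (x axis) for the members of 13 gene lists, one below the other. Filled points are called members (red higher, blue lower), open points are not called, and black bars are list medians, which run from -2.07 for mitosis to 1.46 for macrophage genes of circulating origin.

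Lysosomal genes were higher in repopulated microglia. Of 40 genes of lysosomal hydrolases and membrane proteins, 14 rose, 0 fell and 26 did not pass, against 1.27% of all genes that rose. The median was 0.32, 37 members had a positive change, and 28 were higher without overlap (6.26% of all genes). Summed over the list, 109304 to 116726 CPM were measured in repopulated and 81318 to 87364 CPM in resident libraries, and the 2 ranges did not overlap. Ctsd, the aspartic protease cathepsin D and among the most highly counted genes of these cells, was at 34540, 35450, 33470 and 34470 CPM in the repopulated libraries, against 21820, 21370, 23980 and 23840 CPM in the resident ones (log2 fold change 0.60 ± 0.083 SE, edgeR adjusted p = 0.00341). Ctss, a cysteine protease that works at near-neutral pH and can be secreted, was at 14580, 15750, 13920 and 14830 CPM in the repopulated libraries, against 9442, 9429, 9784 and 10180 CPM in the resident ones (log2 fold change 0.60 ± 0.086 SE, edgeR adjusted p = 0.00431). Both changes were far larger than the spread between the libraries of a group.

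Of the other lysosomal proteases, Ctsa (0.42), Ctsh (0.44), Ctsc (0.43), Ctsb (0.58) and Ctsl (0.34) rose, given as log2 fold changes. Hexa, the alpha subunit of beta-hexosaminidase, was at 1663, 1675, 1655 and 1675 CPM in the repopulated libraries, against 1306, 1244, 1315 and 1362 CPM in the resident ones (log2 fold change 0.35 ± 0.052 SE, edgeR adjusted p = 0.00566). The glycosidases Glb1 (0.57), Man2b1 (0.39) and Gusb (0.32), the cholesterol carrier Npc2 (0.45) and the membrane proteins Lamp2 (0.28) and Cd68 (0.32) rose as well. The lysosomal peptidase Dpp7 and the calcium channel Tpcn2 of lysosomes, which are not in that list, rose by 0.76 and 0.71 (edgeR adjusted p = 0.0124 and 0.0138), and both calls held without any 1 library. Of the 14 calls, 8 held without any 1 library, those of Ctsd, Ctss, Ctsa, Ctsh, Hexa, Glb1, Man2b1 and Cd68. The count was 8 without resident replicate 1 and 9 to 12 without any other library. Calls of Ctsb and Npc2 were lost without each of the 8, with highest adjusted p of 0.121 and 0.148, and that of Ctsc without resident replicate 1 (0.0539). With library totals as the only scaling, which moved the median of all genes to -0.091, 9 of the 40 rose. The proton pump that acidifies the lysosome did not share the calls: of 18 V-ATPase genes 0 were called by edgeR, with a median of 0.17 and 6 at an unadjusted p below 0.05.

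The transcription factor TFEB and its relatives bind promoters of lysosomal genes at an element whose core, CACGTG, is also the E-box of other factors. Of 12 called lysosomal members with a RefSeq promoter, 4 held CACGTG, as did 4 of 18 uncalled members, against 8.09% of all genes with a promoter and 7.15% of all promoters. The windows of 3 of them are shown because these genes rose together, with the motif, which reads the same on both strands, in capitals. They lie at chr7:142387828-142387947 on the minus strand for Ctsd, at chr9:114400958-114401077 on the plus strand for Glb1 and at chr2:164833653-164833772 on the plus strand for an alternative start of Ctsa (GRCm38.p6, 120 bases up to the start).
Ctsd: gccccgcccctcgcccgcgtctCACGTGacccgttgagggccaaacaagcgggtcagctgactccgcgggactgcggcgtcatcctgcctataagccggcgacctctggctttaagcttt
Glb1: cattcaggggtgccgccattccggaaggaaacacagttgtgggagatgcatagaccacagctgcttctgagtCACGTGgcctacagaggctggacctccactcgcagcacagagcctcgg
Ctsa: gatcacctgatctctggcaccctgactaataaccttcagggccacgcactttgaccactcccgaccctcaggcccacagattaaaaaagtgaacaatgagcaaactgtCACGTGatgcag
The motif began 98, 48 and 12 bases before the start in Ctsd, Glb1 and Ctsa. Neither the presence nor the lack of these letters says whether a factor was bound.

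Genes of the protein synthesis machinery were higher in repopulated microglia. Of 35 cytosolic ribosomal proteins looked up, 14 rose and 0 fell (1.27% of all genes rose), all 35 had a positive change (median 0.44), and 30 were higher without overlap (6.26% of all genes). Across all 85 listed ribosomal protein symbols, a set taken after the values were seen, 42 rose, 0 fell and 82 had a positive change, with a median of 0.46. Summed over the 35, 6659 to 7660 CPM were measured in repopulated and 4829 to 5729 CPM in resident libraries. Rpl19, of the large subunit, was at 204, 194, 173 and 179.9 CPM in the repopulated libraries, against 113, 107, 130.1 and 129.7 CPM in the resident ones (log2 fold change 0.65 ± 0.11 SE, edgeR adjusted p = 0.0114). Of the small subunit, Rps4x averaged 210.2 ± 19.1 CPM in repopulated and 148 ± 8.16 CPM in resident libraries (log2 fold change 0.51 ± 0.09 SE, edgeR adjusted p = 0.0114). Rpl7 and Rpl13 rose by 0.51 and 0.52 on the log2 scale (edgeR adjusted p = 0.00911 and 0.0114). Eef1a1, the factor that brings aminoacyl-tRNA to the ribosome, was at 2174, 1943, 1850 and 1962 CPM in the repopulated libraries, against 1391, 1291, 1363 and 1343 CPM in the resident ones (log2 fold change 0.56 ± 0.095 SE, edgeR adjusted p = 0.00974). The changes of the 35 genes ranged from 0.16 to 0.65. The number called was 7 without repopulated replicate 1 or resident replicates 1 or 2 and 16 without repopulated replicate 3, and with library totals only it was 9, with all 35 changes still positive and a median of 0.34. Reads of ribosomal genes may be shared with their processed copies, so single members are uncertain. Male libraries, made with another kit, also had 14 of the 35 called higher with a median of 0.29 (3.03% of all male genes rose). In energy metabolism, of 34 genes of oxidative phosphorylation 0 were called by edgeR and 0 had an unadjusted p below 0.05 (median 0.05, or -0.04 with library totals). Of 23 genes of glycolysis the hexokinase Hk1 alone was called, -0.75 on the log2 scale, a call lost when any library other than repopulated replicate 1 and repopulated replicate 4 was left out, adjusted p up to 0.125.

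**Figure D3:**
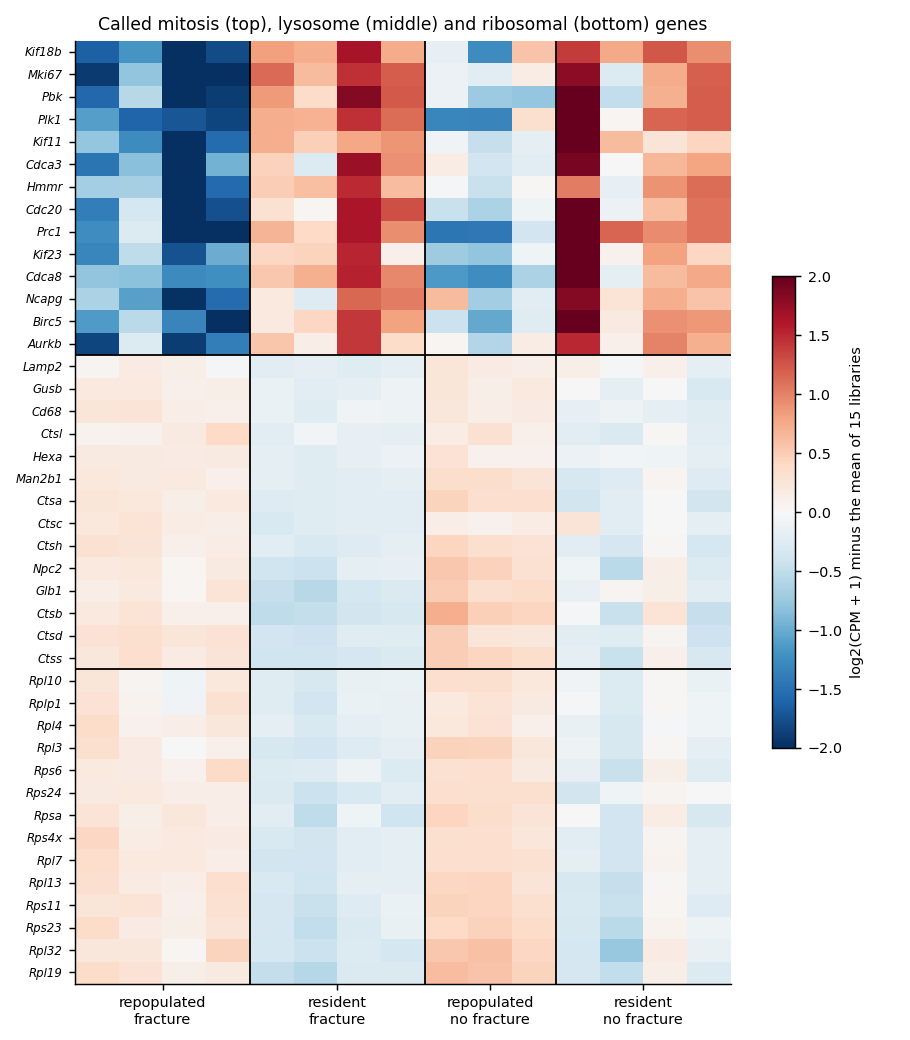
Level of the called mitosis (top), lysosome (middle) and ribosomal (bottom) genes in each of the 15 female libraries, as log2(CPM + 1) minus the mean of the gene over the 15 (colour), with columns in the order repopulated and resident with fracture, repopulated and resident without fracture. With fracture, the 14 mitosis genes are lower and the 14 lysosomal and 14 ribosomal genes higher in the 4 repopulated than in the 4 resident libraries.

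Of 30 homeostatic microglia genes 5 fell, 2 rose and 23 did not pass (1.08% and 1.27% of all genes fell and rose). The median was -0.20, 7 of the 30 had a positive change, and 15 were lower and 5 higher without overlap (5.64% and 6.26% of all genes). In males with fracture 12 of the 30 fell and 2 rose (1.88% and 3.03% of all male genes). Besides Upk1b, the protease inhibitor Serpine2 fell, at 605, 638, 678 and 569 CPM in the repopulated libraries, against 853, 798, 893 and 903 CPM in the resident ones (log2 fold change -0.47 ± 0.08 SE, edgeR adjusted p = 0.00979). The fructose transporter Slc2a5 (-0.59), the fractalkine receptor Cx3cr1 (-0.34) and the Golgi protein Golm1 (-0.32) fell, while the matrix protein Sparc (0.25) and the G-CSF receptor Csf3r (0.37) rose. Cx3cr1, whose promoter drives the recombinase in this line, averaged 2729 ± 160.5 CPM in repopulated and 3449 ± 126 CPM in resident libraries (SD, n = 4 each; edgeR adjusted p = 0.0416), and its call was lost without each of the 8 libraries (highest adjusted p = 0.117). The call of Slc2a5 was lost when any library other than repopulated replicate 4 was left out, adjusted p up to 0.129, and that of Sparc lost without repopulated replicate 1 or resident replicates 1, 2 or 4, adjusted p up to 0.0632. In the list 4 genes fell without repopulated replicate 4 and 2 without any other single library. The call of Golm1 was lost without each of the 8 libraries (adjusted p up to 0.112). P2ry12, the ADP receptor that steers microglial processes, was at 3908, 3705, 4394 and 3162 CPM in the repopulated libraries, against 5436, 5461, 5174 and 5403 CPM in the resident ones (log2 fold change -0.50 ± 0.15 SE, edgeR adjusted p = 0.0938). The groups did not overlap, and P2ry12 was called by DESeq2 and in a fit of the 8 libraries alone. Tmem119 stood at 3692 ± 292 CPM in repopulated and 4354 ± 140.2 CPM in resident libraries (log2 fold change -0.24 ± 0.071 SE, edgeR adjusted p = 0.0934) and passed with library totals and in the fit of the 8 libraries alone. The transcription factor Sall1, which keeps microglia distinct from other macrophages, stood at 276 ± 18 CPM in repopulated and 308 ± 17.3 CPM in resident libraries (log2 fold change -0.16 ± 0.073 SE, edgeR adjusted p = 0.344), and of 30 transcription factors of microglia and macrophages 0 were called by edgeR and 6 had an unadjusted p below 0.05 (median -0.09).

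Of 27 disease-associated microglia genes 6 rose and Ccl6 fell, against 1.27% and 1.08% of all genes (median 0.65). Ctsb, Ctsd and Ctsl of the lysosome list are among the 6. Apoe, the lipid carrier, was at 8719, 4988, 4338 and 8285 CPM in the repopulated libraries, against 1209, 947, 980.0 and 836 CPM in the resident ones (log2 fold change 2.73 ± 0.56 SE, edgeR adjusted p = 0.029). Repopulated replicates 1 and 4 were well above 2 and 3, and all were far above the resident libraries. The call was lost without repopulated replicates 1 or 4 or any resident one, at an adjusted p of at most 0.0889. The lipid-sensing receptor Trem2 and its adaptor Tyrobp rose by 0.28 and 0.35. The first call was lost without repopulated replicates 1 or 4 or resident replicates 1, 2 or 3, adjusted p up to 0.0758. The second was lost when any library other than repopulated replicate 4 and resident replicate 3 was left out, adjusted p up to 0.0967. The number of rises in the list was 1 without repopulated replicate 1 or resident replicates 1 or 2, and 2 to 4 without any other library. The chemokine Ccl6 was at 143, 163, 173 and 159.7 CPM in the repopulated libraries, against 231, 212, 236 and 252 CPM in the resident ones (log2 fold change -0.54 ± 0.089 SE, edgeR adjusted p = 0.00876), and its call held throughout.

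Of 23 genes known from macrophages of circulating origin 6 rose and 0 fell, against 1.27% and 1.08% of all genes (median 1.46). Apoe, already counted in the disease-associated list, is among the 6. Lyz2, the lysozyme of phagocytes, was at 1720, 1557, 1429 and 1579 CPM in the repopulated libraries, against 645, 634, 576 and 622 CPM in the resident ones (log2 fold change 1.34 ± 0.18 SE, edgeR adjusted p = 0.00508). Every repopulated library was more than 2-fold above any resident one, and with Pilra this was the second call of the list that held without any 1 library. Ms4a7, a membrane protein of border macrophages, was at 44, 16.8, 18.2 and 12.9 CPM in the repopulated libraries, against 0.897, 0.91, 0.104 and 0.161 CPM in the resident ones (log2 fold change 5.45 ± 1.19 SE, edgeR adjusted p = 0.0343), with repopulated replicate 1 well above the rest. The lectin receptor Clec12a was at 10.4, 6.77, 8.89 and 2.77 CPM in the repopulated libraries, against 0.158, 0.375, 0 and 0 CPM in the resident ones (log2 fold change 5.69 ± 1.15 SE, edgeR adjusted p = 0.0201), so that its fitted fold change rests on resident counts near 0. The interferon-induced Ifitm2 averaged 11.9 ± 3.97 CPM in repopulated and 2.61 ± 1.13 CPM in resident libraries (log2 fold change 2.18 ± 0.52 SE, edgeR adjusted p = 0.0365). The number called was 2 to 4 without any 1 library. Calls of Ms4a7 and Ifitm2 were lost without each of the 8 libraries (0.101 and 0.111), and that of Clec12a without repopulated replicate 1 or resident replicates 1, 3 or 4 (0.069). Markers of other cells are given beside these. Of 7 border macrophage markers listed Ms4a7 alone was called. Their median was 1.07, 5 had a positive change, and 3 were higher without overlap (6.26% of all genes). Their summed level overlapped, 319.6 to 489 CPM in repopulated and 394 to 434 CPM in resident libraries. Ms4a7, at 12.9 to 44 CPM in repopulated libraries, is a small part of that sum. Mrc1, another of them, averaged 10.6 ± 6.27 CPM in repopulated and 1.2 ± 1.26 CPM in resident libraries (edgeR adjusted p = 0.144). Of 7 monocyte markers listed 0 were called by edgeR and 1 had an unadjusted p below 0.05, with sums of 14.2 to 33.1 CPM in repopulated and 6.9 to 21.4 CPM in resident libraries. The defining Ccr2 and Ly6c2 are not listed in the table. A transcript seen in repopulated cells alone could not be listed, so this does not show that they were absent there. The same holds for every marker below that is not listed. The part of such cells in these results was not tested, and in bulk RNA more cells of a type and more RNA per cell cannot be told apart.

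Receptors and signalling genes of innate immunity included several steady rises. Of 31 toll-like receptor and NF-kB genes 3 rose and 0 fell, against 1.27% and 1.08% of all genes (median 0.09). Tlr2, the receptor of bacterial lipoproteins, was at 662, 618, 546 and 590.4 CPM in the repopulated libraries, against 331, 348, 328 and 352 CPM in the resident ones (log2 fold change 0.83 ± 0.14 SE, edgeR adjusted p = 0.0104). Ly86, the partner of a TLR4-like receptor, and the NF-kB subunit Nfkb2 rose by 0.30 and 0.52; the first call was lost without resident replicate 1 (0.0501) and the second without each library (0.141). Csf3r was at 1246, 1150, 1129 and 1236 CPM in the repopulated libraries, against 856, 894, 977 and 949.7 CPM in the resident ones (log2 fold change 0.37 ± 0.063 SE, edgeR adjusted p = 0.00974), with no overlap, while no other neutrophil marker of 13 looked up was listed. Il6st, the shared receptor chain of the IL-6 family, was at 429, 428, 418 and 446 CPM in the repopulated libraries, against 570.1, 582, 543 and 658 CPM in the resident ones (log2 fold change -0.45 ± 0.083 SE, edgeR adjusted p = 0.0124). Mpeg1, a pore-forming protein of macrophages, averaged 1159 ± 47.5 CPM in repopulated and 775 ± 88.3 CPM in resident libraries (log2 fold change 0.58 ± 0.094 SE, edgeR adjusted p = 0.00876). Among 8 Fc receptor genes the activating Fcgr4 rose (1.10), a call lost without resident replicates 1 or 3, adjusted p up to 0.053. The complement subunit C1qb rose by 0.33, 1 of 15 complement genes called, and lost the call without resident replicate 1 (0.0501). The immune checkpoint ligand Cd274 (0.84), the lectin receptor Clec4a3 (0.37) and Ms4a6c (0.72) rose and the peptide-loading H2-DMb1 fell (-0.33), with calls lost without 7, 8, 4 and 6 of the 8 libraries (adjusted p up to 0.127, 0.135, 0.0552 and 0.0923).

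Of 39 cytokines, chemokines and receptors Ccl6 was the single call, a fall, against 1.08% of all genes that fell (median 0.12). Il1b was at 2.95, 18.8, 6.84 and 3.41 CPM in the repopulated libraries, against 2.8, 8.3, 8.1 and 8.33 CPM in the resident ones (log2 fold change 0.22 ± 0.61 SE, edgeR adjusted p = 0.957), with wide overlap and 1 high repopulated library. Tnf was at 9.22 ± 0.852 CPM in repopulated and 9.97 ± 1.38 CPM in resident libraries (log2 fold change -0.11 ± 0.34 SE, edgeR adjusted p = 0.96). Of 39 interferon response genes 38 had a positive change (median 0.49) and 14 were higher without overlap (6.26% of all genes). However, Ifitm2 was the single call, a rise, against 1.27% of all genes that rose. Their summed level was 6187 to 7445 CPM in repopulated and 3731 to 6062 CPM in resident libraries, lowest in resident replicate 1. Oas2, an antiviral sensor chosen after its values were seen, averaged 168 ± 9.72 CPM in repopulated and 42 ± 25.4 CPM in resident libraries (log2 fold change 2.00 ± 0.59 SE, edgeR adjusted p = 0.107). In males with fracture 31 of the 39 rose, with a median of 1.66 (3.03% of all male genes rose). The female minus male difference passed for 0 of the 39 by edgeR, with 20 at an unadjusted p below 0.05, and sex and library kit cannot be told apart. Of 20 genes of MHC class I presentation 0 were called by edgeR and 10 had an unadjusted p below 0.05 (median 0.38).

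Of 21 microglial genes studied for pain 3 rose and 2 fell, against 1.27% and 1.08% of all genes (median -0.04). P2rx4, an ATP-gated channel whose rise in spinal microglia is a classic feature of neuropathic pain models, was at 333, 347, 299.8 and 355 CPM in the repopulated libraries, against 217, 209.9, 213 and 206 CPM in the resident ones (log2 fold change 0.66 ± 0.11 SE, edgeR adjusted p = 0.00994). The groups did not overlap and the call held without any 1 library, as did those of Ctss and Tlr2 in the same list. The 2 falls were those of Cx3cr1 and of Ptgs1, which makes prostaglandin precursors, at 1333 ± 73.9 CPM in repopulated and 1615 ± 74.6 CPM in resident libraries (edgeR adjusted p = 0.0194, up to 0.0712 without repopulated replicates 2 or 3 or resident replicates 1 or 3). Trpm2, a calcium channel opened by oxidative stress, rose by 0.65, and Pnp, which breaks down inosine, fell (-0.41). The first call was lost when any library other than repopulated replicate 2 and repopulated replicate 3 was left out, adjusted p up to 0.0747. The second was lost whichever of the 8 libraries was left out, adjusted p up to 0.113. Of the iron genes, the plasma iron carrier Trf was at 2846, 2628, 2669 and 2741 CPM in the repopulated libraries, against 2239, 2217, 2167 and 2201 CPM in the resident ones (log2 fold change 0.30 ± 0.053 SE, edgeR adjusted p = 0.0104). The phagosomal metal transporter Slc11a1 and the haem oxygenase Hmox1 rose by 0.54 and 0.70, while the iron exporter Slc40a1 fell (-0.60). The call of Slc11a1 was lost without repopulated replicates 1 or 2 or resident replicates 1, 2 or 3, adjusted p up to 0.064, that of Hmox1 lost when any library other than repopulated replicate 3 was left out, adjusted p up to 0.102, and that of Slc40a1 lost without resident replicates 1 or 4, adjusted p up to 0.055. Trf is also a marker of oligodendrocytes. Of their 8 listed markers Trf alone was called, and their summed level was 2864 to 3083 CPM in repopulated and 2424 to 2497 CPM in resident libraries, mostly Trf itself; the part of these cells in the result was not tested. Of 17 genes of cholesterol efflux and LXR targets 4 rose (1.27% of all genes rose). They were Apoe and Npc2, both counted in lists above, with the exporter Abca1 (0.48) and the 25-hydroxylase Ch25h (1.98). The calls of Abca1 and Ch25h were each lost without 7 of the 8 libraries (adjusted p up to 0.108 and 0.119).

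A few called genes known from vessel walls, basement membrane and adhesion are given next, falls first; they were put together after their values were seen and are no tested group. The looked-up list of 36 integrin, adhesion and actin genes went both ways, with 3 rises, 4 falls, 19 positive changes and a median of 0.04. Over all genes 1.27% rose and 1.08% fell. Thsd1, an adhesion protein of endothelium, was at 2.1, 0.797, 0.871 and 1.33 CPM in the repopulated libraries, against 8.02, 10.7, 12.3 and 12.1 CPM in the resident ones (log2 fold change -3.07 ± 0.41 SE, edgeR adjusted p = 0.00236). Ecscr, which regulates endothelial migration, was at 127, 138, 118 and 144 CPM in the repopulated libraries, against 245, 239, 244 and 241 CPM in the resident ones (log2 fold change -0.88 ± 0.12 SE, edgeR adjusted p = 0.0022). Both groups were well apart in each gene. The basement membrane gene Lamb2, a laminin chain, averaged 9.53 ± 2.43 CPM in repopulated and 26.8 ± 2.46 CPM in resident libraries (log2 fold change -1.49 ± 0.23 SE, edgeR adjusted p = 0.00593). Nid2, which links laminin to collagen, averaged 20.6 ± 3.94 CPM in repopulated and 40.6 ± 4.39 CPM in resident libraries (log2 fold change -0.98 ± 0.16 SE, edgeR adjusted p = 0.00911). Pecam1 averaged 4.43 ± 1.97 CPM in repopulated and 22.1 ± 2.46 CPM in resident libraries (log2 fold change -2.32 ± 0.48 SE, edgeR adjusted p = 0.0214), and its call was lost without repopulated replicates 1 or 2 or resident replicates 1, 2 or 3 (0.0604). Of 12 endothelial markers looked up 3 are listed, with a median of -0.03. Kdr, the main VEGF receptor, was higher without overlap but not called, at 23.3 ± 1.86 CPM in repopulated and 12 ± 1.97 CPM in resident libraries (log2 fold change 0.95 ± 0.26 SE, edgeR adjusted p = 0.0653), and Flt1 averaged under 1 CPM in both groups. Their summed level overlapped, 23.7 to 32.5 CPM in repopulated and 30.1 to 39.9 CPM in resident libraries. Cldn5 and Cdh5, which define endothelial cells, are not listed. Of the cytoskeleton, the actin gene Actg1 was at 914, 812, 811 and 826 CPM in the repopulated libraries, against 1155, 1024, 1164 and 1131 CPM in the resident ones (log2 fold change -0.41 ± 0.077 SE, edgeR adjusted p = 0.0135). Coro1a (-0.35) fell too, as did Lrp1 (-0.37), a receptor for lipoproteins and debris, and the GTPase Rab31 (-0.39). The first call was lost without repopulated replicate 1 or resident replicates 1 or 3, adjusted p up to 0.0566, the second lost without repopulated replicate 3 or resident replicates 1 or 4, adjusted p up to 0.0663, and the third lost without repopulated replicate 1 or resident replicates 1 or 4, adjusted p up to 0.0593. The motor Myo1e rose by 0.81 (edgeR adjusted p = 0.00876), and Vcam1 averaged 103 ± 39 CPM in repopulated and 38.6 ± 4.01 CPM in resident libraries, a call lost when any library other than repopulated replicate 3 and repopulated replicate 4 was left out, adjusted p up to 0.0782.

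Other large changes lay outside these groups. Among the largest rises by the naming rule, the late endosomal GTPase Rab7b (2.56), the metalloprotease Adam33 (3.04), the podosome adaptor Sh3pxd2b (2.00), the transcriptional repressor Trps1 (1.91), the motor Myo5a (1.76) and the anthrax toxin receptor Antxr2 (1.62) lost their calls without 7, 8, 8, 1, 3 and 4 of the 8 libraries (adjusted p up to 0.0929, 0.128, 0.115, 0.0511, 0.053 and 0.069). Of the largest falls, the phosphodiesterase Pde2a averaged 1.69 ± 1.21 CPM in repopulated and 16.3 ± 7.64 CPM in resident libraries, a call lost when any library other than repopulated replicate 2 was left out, adjusted p up to 0.103. The transporter gene Abcg3 was at 3, 2.9, 8.09 and 3.98 CPM in the repopulated libraries, against 17.9, 20.4, 18.5 and 21.2 CPM in the resident ones (log2 fold change -2.12 ± 0.33 SE, edgeR adjusted p = 0.00834), and the call held. Among highly counted genes, Itm2b, an amyloid-binding membrane protein, averaged 6683 ± 77.9 CPM in repopulated and 5128 ± 165 CPM in resident libraries (log2 fold change 0.38 ± 0.06 SE, edgeR adjusted p = 0.00834), and the endolysosomal nuclease Pld4 rose by 0.24, a call lost when any library other than repopulated replicate 2 and repopulated replicate 3 was left out, adjusted p up to 0.0865. The mitochondrial enzyme Idh2 averaged 89.9 ± 3.98 CPM in repopulated and 139.6 ± 9.43 CPM in resident libraries (log2 fold change -0.63 ± 0.12 SE, edgeR adjusted p = 0.0138). Calls in the other lists are set beside 1.27% of all genes that rose and 1.08% that fell. Of 25 Siglec, Pilr and lectin receptors 3 rose, of 6 Ms4a genes 2 rose, and of 21 phagocytosis receptors and bridging molecules 2 rose and 1 fell. Of 24 ion channels 2 rose, and of 17 iron and haem genes 3 rose and 1 fell. In each of 3 lists, 14 purinergic genes, 15 genes of MHC class II and co-stimulation and 23 genes of autophagy and endosomal GTPases, 1 rose and 1 fell. Of 34 solute carriers 1 rose and 2 fell, and of 16 eicosanoid genes Ptgs1 alone was called. Of 15 TGF-beta signalling genes and 29 immediate-early genes, the second set known to respond to tissue dissociation, edgeR called 0 in each, with 1 and 4 at an unadjusted p below 0.05 and medians of -0.05 and -0.04. Over all genes, 1834 of 13377 had an unadjusted p below 0.05.

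The immunoglobulin gene Ighm, which encodes the constant region of IgM, changed in the makeup of its transcripts. Of its 2 listed transcripts, Ighm-202 (chr12:113418558-113422730, GRCm38, minus strand, 6 exons) reaches past the end of Ighm-201 (chr12:113420741-113422730, 4 exons), into the exons of the membrane form. Ighm-202 was at 240.5, 257, 289.9 and 255 CPM in the repopulated libraries, against 390.5, 411, 431 and 441 CPM in the resident ones (log2 fold change -0.68 ± 0.09 SE, edgeR adjusted p = 0.00815). Ighm-201 was at 114, 108.9, 129 and 120.1 CPM in the repopulated libraries, against 90.2, 95.8, 84.5 and 94.2 CPM in the resident ones (log2 fold change 0.37 ± 0.088 SE, edgeR adjusted p = 0.111). One transcript was thus lower in every repopulated library and the other higher, though the second change was not called. Ighm-202 made up 68.8% ± 1.12 of the listed counts of the gene in repopulated and 82.1% ± 1.18 in resident libraries (SD, n = 4 each). This share differed by limma's diffSplice test with Benjamini-Hochberg adjustment over 5403 genes (adjusted p = 6.72e-05, and at most 0.00133 without any 1 library), in which 5 genes were called (0.0925%). In males with fracture the share was 67.5% to 79% in 7 repopulated libraries, median 74.6%, and 78.9% to 82.6% in 5 resident libraries, median 79.4%, with an unadjusted p of 0.00704 that did not pass adjustment (0.218). Summed over transcripts, Ighm fell by 0.39 on the log2 scale, a call lost without repopulated replicate 1 or resident replicate 4, adjusted p up to 0.055. Of 12 B cell markers 4 are listed, Ighm among them. Cd79b, part of the B cell receptor, fell, averaging 20.5 ± 7.19 CPM in repopulated and 45.3 ± 3.48 CPM in resident libraries, a call lost without repopulated replicate 2 or resident replicates 1 or 3, adjusted p up to 0.053. Ighd averaged 13.9 ± 2.75 CPM in repopulated and 22.9 ± 2.33 CPM in resident libraries. Cd22 averaged 25.3 ± 5.22 CPM in repopulated and 19.2 ± 3.73 CPM in resident libraries. The defining Cd79a and Ms4a1 are not listed, and the part of B cells in these values was not tested.

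**Figure D4:**
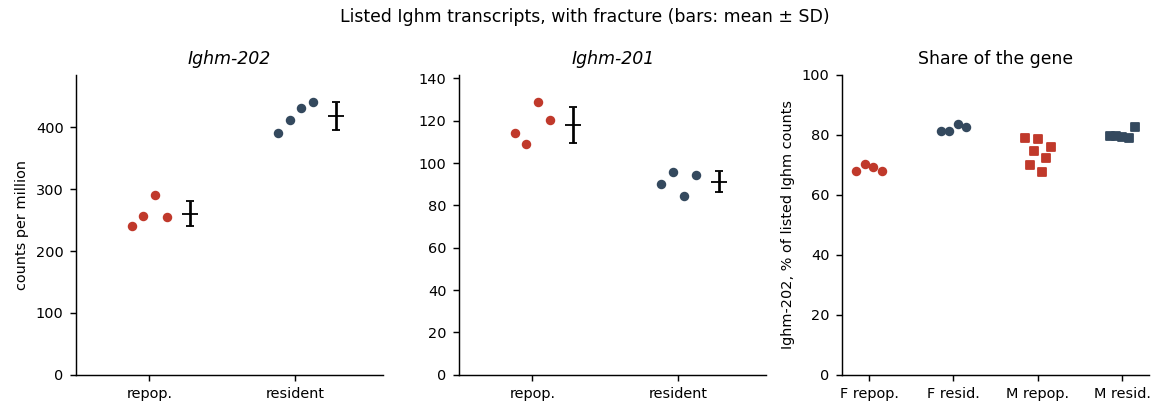
CPM of the transcripts Ighm-202 (left) and Ighm-201 (middle) in the 4 repopulated (red) and 4 resident (dark) female libraries with fracture, with mean ± SD, and the share of Ighm-202 in the listed Ighm counts (right, %) in females (circles) and males (squares). The female shares are 67.8% to 70.2% in repopulated and 81.1% to 83.6% in resident libraries.

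Mgat4a, an enzyme that branches N-glycans, was the other gene whose usage call held without any 1 library (limma diffSplice adjusted p = 6.72e-05, at most 0.0072). Its level as a gene was not called, at 568 ± 50.4 CPM in repopulated and 572 ± 28.3 CPM in resident libraries (log2 fold change -0.01 ± 0.081 SE, edgeR adjusted p = 0.986). Mgat4a-201 made up 33.2% ± 4.65 of it in repopulated and 51.1% ± 6.01 in resident libraries, and Mgat4a-205, with 1 exon more in the annotation, 44.8% ± 3.81 in repopulated and 30% ± 6.32 in resident libraries (SD, n = 4 each). The male shares of Mgat4a-201 overlapped, 34.6% to 82.9% in repopulated and 52.9% to 81% in resident libraries, and the male adjusted p was 0.638. The remaining 3 usage calls, of Cdh23, Picalm and Trappc12, were lost without 1 or more libraries (adjusted p up to 0.187, 0.187 and 0.52). Srek1, Gemin5 and Fancm, which another usage test (edgeR's diffSpliceDGE) placed among its lowest p, were not called by limma: the adjusted p was 0.985 for Srek1 and 0.769 for Gemin5, and Fancm was not tested. Of 34865 transcripts tested one by one, 85 were called (0.244%). For Serpinf1 the fall was spread over the protein-coding Serpinf1-201 (log2 fold change -3.05 ± 0.36 SE, edgeR adjusted p = 0.00815) and Serpinf1-208, annotated as a target of nonsense-mediated decay (log2 fold change -1.59 ± 0.17 SE, edgeR adjusted p = 0.00618). Pilra-201, a protein-coding transcript, carried most of the rise of Pilra, at 117 ± 7.82 CPM in repopulated and 27.7 ± 3.02 CPM in resident libraries (log2 fold change 2.08 ± 0.24 SE, edgeR adjusted p = 0.00815).

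The same genes were then followed in the other libraries. The female libraries without fracture give their own contrast, but they entered the same model and so the shared spread, scaling and filter behind the 315 calls. In females without fracture, 3 repopulated and 4 resident libraries, 338 genes were called (2.53%), 209 higher (1.56%) and 129 lower (0.964%). Of the 170 genes higher with fracture 167 were higher there too and 105 were called higher, which is 61.8%; of the 145 lower 142 were lower and 52 called lower, which is 35.9%. Over all genes 61.8% and 66.5% kept the direction. The median log2 change of the 145 was -1.10 with and -0.82 without fracture, and that of the 170 was 0.56 and 0.53. All these genes were chosen by their calls with fracture, and that choice alone can make a change look smaller without fracture. Serpinf1 was -2.25 with and -1.35 without fracture, Mki67 -3.04 and -1.14, Nedd9 1.82 and -0.09, Ctsd 0.60 and 0.52, and P2rx4 0.66 and 0.64. The interaction test, run gene by gene, called 0 of 13377 genes by edgeR (494 at an unadjusted p below 0.05, and 1 call by DESeq2). These 494 are a smaller share than the 0.05 that chance alone would give. The unadjusted p of the interaction was 0.000566 for Nedd9, 0.00167 for Serpinf1, 0.0179 for Mki67, 0.529 for Ctsd and 0.93 for P2rx4, with an edgeR adjusted p of 1.00 for each. The fracture libraries behind the calls of these genes enter this test too, so low values are no separate evidence. The mitosis list had a median of -2.07 with and -1.31 without fracture, a difference that was not tested. A missed call does not show that the effects were equal.

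In males with fracture, 7 repopulated and 5 resident libraries made with another kit, 589 of 11999 genes were called (4.91%), 364 higher (3.03%) and 225 lower (1.88%). Of the 170 female rises 168 were listed, 167 were higher in males and 81 were called higher there. Of the 145 female falls 133 were listed, 123 were lower and 48 called lower. Over all genes 63.2% of those higher and 64.3% of those lower in females had the same direction in males. Among the 79 female calls that held without any 1 library, 33 of 47 listed rises and 13 of 29 listed falls were called in males in the same direction, and 0 were called in the opposite one. Serpinf1 fell by 1.07 in males (edgeR adjusted p = 0.000131), Pilra rose by 1.65 (0.00608), Apoe by 2.28 (0.00107) and Lag3 by 0.93 (0.000199). The mitosis genes were not called in males: 0 of 42 listed passed by edgeR, with a median of -0.54, and Mki67 was at -0.67 (0.76). The female minus male difference was called for 0 of 11617 genes (518 at an unadjusted p below 0.05, and 4 by DESeq2), and for 10 of the 42 mitosis genes its unadjusted p was below 0.05. The called genes were spread over the genome, from 0.978% of the genes of chromosome 16 to 3.62% of those of chromosome 14 among chromosomes with at least 100 genes tested.

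**Figure D5:**
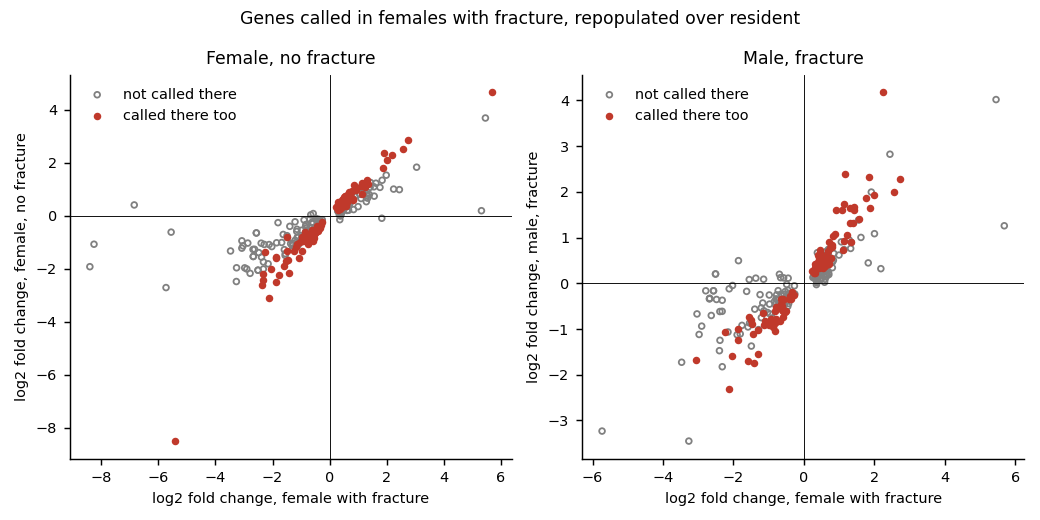
Log2 fold change of repopulated over resident microglia for the genes called in females with fracture (x axis) against the same in females without fracture (left, y axis) and in males with fracture (right, y axis); red points are called there too, open points are not. Most points share their sign: 167 of 170 rises and 142 of 145 falls without fracture, and 167 of 168 rises and 123 of 133 falls in males.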

How the data were processed

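RNA of sorted spinal cord microglia was sequenced with paired reads. The authors deposited estimated counts per transcript as whole numbers, 34865 transcripts in 15 female libraries and 28345 in 17 male libraries; per the labels' protocols a company made the female libraries from ultra-low input, and the male ones used another kit, so sex and kit cannot be told apart. The submitters' processing notes name Trim Galore 0.6.7, cutadapt 3.4, STAR 2.7.6a, RSEM 1.3.1, DESeq2 1.34.0 and the build GRCm38; neither their roles nor the annotation is given there. A further deposited column held the mean absolute deviation of the signal per transcript (within 3.33e-06 of the value recomputed from the female counts) and was not used in any test.

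Transcript counts were summed by gene identifier (13377 genes), scaled by TMM, filtered with filterByExpr and fitted with edgeR 4.0.16 (robust quasi-likelihood) in 1 model of the 4 female groups, so that all 15 libraries share the estimate of the spread. Benjamini-Hochberg adjustment ran over all genes, with a threshold of 0.05. Males were fitted apart, and the female minus male difference was tested over 11617 shared genes. Fold changes come from the fit, and CPM are linear. Each SE is the absolute log2 fold change divided by the square root of the F statistic. Transcript usage was tested with limma 3.58.1 (diffSplice, mean of at least 3 CPM). This differs from the planned edgeR diffSpliceDGE, which made 59 false calls on simulated data where limma made 1. There edgeR tested 7946 genes with no CPM minimum, and limma 5359 genes with its minimum of 3 CPM. The filter and the method thus cannot be told apart in that difference. The gene fit made 6 false calls among 119. DESeq2 1.42.0 was an alternative, and R was 4.3.3. Gene positions came from GENCODE M21, which matched 13275 identifiers, and promoters from RefSeq.

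The members and lists were chosen with earlier results of these data known. Named were, among called genes of at least 5 CPM in the higher group whose groups did not overlap and that are not predicted genes, RIKEN genes or pseudogenes, the 15 largest rises, the 15 largest falls and the 15 highest in CPM; up to 4 called members per list by lowest p; a panel that included Apoe, P2ry12, Tmem119, Cx3cr1, Sall1, Mki67, Ctsd, Ccl6, Lyz2, Il1b, Tnf and Cdkn1a; and the 6 lowest p of the edgeR usage test. Some genes named by this rule are not reported here.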

Additional observations from a re-analysis of the deposited data

Results flagged for a closer look

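In 9 of 202 groups of 4 libraries examined, 1 library stood apart from the other 3 by more than the critical gap of a Dixon test; chance gives about 1 in 20 groups. Among genes called higher, Adam33 was at 10.5 CPM in repopulated replicate 1 and at 4.73 to 5.1 CPM in the other repopulated libraries. Rab7b was at 15.8 CPM in repopulated replicate 2, against 9.24 to 9.74 CPM in the others of its group. Sparc was at 4030 CPM in repopulated replicate 4 and at 4330 to 4350 CPM in the others. Among genes called lower, Dnmt1 was at 31.2 CPM in repopulated replicate 3, against 24.0 to 25.2 CPM in the others. Actg1 was at 914 CPM in repopulated replicate 1, where the others had 811 to 826 CPM. Slc2a5 was at 616 CPM in repopulated replicate 4, where the others had 480 to 488 CPM. In the resident group, Kif18b was at 23.5 CPM in replicate 3 and at 11.9 to 12.8 CPM in the others. Of the genes not called, Sall1 was at 334 CPM in resident replicate 3 (298 to 302 CPM in the others), and Il1b at 2.8 CPM in resident replicate 1 (8.1 to 8.33 CPM in the others).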

How the results depend on the processing

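The number of called genes in females with fracture, 315 (170 higher, 145 lower), moved with the alternatives as follows. DESeq2 called 694 (358 higher, 336 lower), 676 without fracture, 1 for the interaction and 4 for the female minus male difference. A fit of the 8 fracture libraries alone called 629 (347 higher, 282 lower). With library totals only, 110 were higher and 276 lower. Without any 1 library 106 to 233 were called, 55 to 145 higher and 46 to 99 lower, with the fewest in all and the fewest higher without resident replicate 1 and the fewest lower without resident replicate 3, and the interaction gave 0 to 1. With the replicate number as a block 184 were called (108 higher, 76 lower), 174 of them among the 315, and 143 without fracture; same-numbered libraries deviated together weakly (correlations of 0.071, -0.021, -0.032 and 0.131), so the numbers were not taken to pair the samples. DESeq2 size factors (310), no filter (315), a filter of 1 CPM in 8 libraries (335) and no robust estimation (312) kept the count within 1.5 times. The planned edgeR usage test gave 28 genes, 8 with transcripts of at least 10 percent of their gene, and limma gave 5, 10 with no CPM minimum and 2 to 7 without any 1 library. Over the named genes and alternatives 1257 values kept their direction and side of the threshold, 362 lost the call, 4 gained it and 9 turned sign. The 9 belonged to 5 genes not called, whose log2 changes without any 1 library ran from -0.65 to 0.49 for Il1b (negative without repopulated replicate 2 or resident replicate 1), -0.17 to 0.021 for Gemin5, -0.28 to 0.018 for Fancm, -0.047 to 0.044 for Mgat4a and -0.056 to 0.010 for Picalm. The cause of these shifts was not tested. In simulation at this depth and number of libraries 25.4% of 1.5-fold changes were recovered, in genes with a mean of at least 5 CPM.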
